A study of Mus musculus with 22 samples.

Results

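Clustered replication-dependent histone genes make the bulk of the histone protein that packs newly copied DNA. The genes described here are those of the mouse gene table whose symbol begins with Hist1h, Hist2h, Hist3h or Hist4h and which had counts in at least 5 of 22 libraries. There were 61 such genes among the 55487 genes of the table, out of 70 with such a symbol. They comprised 6 genes of linker histone H1, 16 of H2A, 16 of H2B, 10 of H3 and 13 of H4, and 53 of the 61 lay in the Hist1 cluster on chromosome 13, 4 in Hist2 on chromosome 3, 3 in Hist3 on chromosome 11 and 1, Hist4h4, on chromosome 6. Of the 61, 58 were annotated as coding and 3 as pseudogenes (Hist1h2aj, Hist1h2al and Hist3h2bb-ps). The other 9 genes with such a symbol had counts in 4 libraries (Hist1h2bk), in 1 library (Hist2h2ab) or in none (Hist1h2aa, Hist1h2ba, Hist2h2aa1, Hist2h2aa2, Hist2h2bb, Hist2h3b and Hist2h3c1).

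Histones H2A, H2B, H3 and H4 form the core particle around which DNA is wound, and H1 binds the DNA that joins the particles. The clustered genes are transcribed mainly in S phase under the coactivator NPAT, and their mRNAs normally end after a short stem-loop bound by SLBP, without the poly(A) tail that other mRNAs carry. Some of these genes can also give a longer, polyadenylated mRNA, which has been described in cells that differentiate and stop dividing. H2afz and H3f3b, which are histone genes outside the clusters, are expressed throughout the cycle and their mRNAs end in a poly(A) tail.

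The RNA came from spleen cells of male C57BL/6 mice, wild type in genotype, that were either monocytes or macrophages made from them by PMA (phorbol myristate acetate, which activates protein kinase C) at 200 ng/mL over 5 days. In each cell type 1 group received ox-LDL, a form of lipoprotein from which such cells take up cholesterol, at 50 µg/mL for 24 hours, and the other received vehicle. The libraries were 6 of vehicle monocytes (1 to 6), 5 of ox-LDL monocytes (7 to 11), 5 of vehicle macrophages (A to E) and 6 of ox-LDL macrophages (G to L). The age of the mice is not given in the sources used here. The libraries were made from polyadenylated RNA, a class to which histone mRNAs ending at the stem-loop do not belong.

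The stem-loop was sought in each annotated transcript after its stop codon, as 16 bases: a 6-base stem that begins with GG, a 4-base loop that begins with TTT or TCT, and 6 bases that end with CC and pair back with at most 1 mismatch. It was found in 42 of the 61 members. The sequences below are the transcript strand read from GENCODE M21 transcripts (GRCm38), 5′ to 3′, with the stem and loop in capitals; they are shown for the most abundant member with a stem-loop of each family, and for 3 more H4 genes on which the ox-LDL comparison turns.

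Hist1h1c (H1, chromosome 13, 23738808 to 23740367, plus strand): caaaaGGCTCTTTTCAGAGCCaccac
Hist1h2ao (H2A, chromosome 13, 21810465 to 21810944, plus strand): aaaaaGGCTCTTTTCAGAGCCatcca
Hist1h2bg (H2B, chromosome 13, 23571396 to 23572013, plus strand): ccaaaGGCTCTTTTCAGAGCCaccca
Hist1h3e (H3, chromosome 13, 23561534 to 23562369, minus strand): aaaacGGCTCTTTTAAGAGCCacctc
Hist1h4d (H4, chromosome 13, 23581598 to 23582735, plus strand): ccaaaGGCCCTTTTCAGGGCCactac
Hist1h4i (H4, chromosome 13, 22040636 to 22041362, minus strand): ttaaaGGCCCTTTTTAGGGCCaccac
Hist1h4h (H4, chromosome 13, 23531050 to 23531519, plus strand): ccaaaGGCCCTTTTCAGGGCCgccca
Hist1h4c (H4, chromosome 13, 23697635 to 23698454, minus strand): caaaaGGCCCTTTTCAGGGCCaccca

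The stem of the first 4 genes reads GGCTCT and that of the 4 H4 genes GGCCCT. Among the 12 H4 members with a match, 7 carried the stem-loop of Hist1h4c and 2 that of Hist1h4i. All 13 H4 members encoded 1 and the same protein of 103 residues, whereas the 6 coding H1 members encoded 6 different proteins, the 10 H3 members 2, the 14 coding H2A members 6 and the 15 coding H2B members 9. In 22 members the annotated transcript ran more than 100 bases past the stem-loop: by 454 bases in Hist1h4c, 770 in Hist1h4d, 330 in Hist1h4i and 840 in Hist1h1c. In 20 members it ended within that distance, after 46 bases in Hist1h4h and 31 in Hist1h2ao. A further 16 coding members had no match in their annotated transcript, Hist1h2bc and Hist2h2be among them, and the 3 pseudogenes had no coding transcript.

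The level of most of these genes was low. TPM, which scales counts by gene length and library so that genes can be compared, averaged over 10 in 3 members, between 1 and 10 in 25 and under 1 in 33. Members made 4129 to 9195 counts per monocyte library and 2866 to 5596 per macrophage library, of library totals of 37330389 to 50257111 counts, and 39 to 57 of the 61 had a count in a given library. Median mean TPM was 1.65 over the 22 members whose annotated transcript extends past the stem-loop (14 of them above 1), 0.847 over the 20 that end near it (10 above 1) and 0.345 over the 16 without one (4 above 1).

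Reads are shared in several ways among these genes. Of the 61, 17 overlap an annotated gene on the opposite strand and 4 one on the same strand, and the strand setting of the authors' counting is not given in the sources used here. Neither is the treatment of reads that fit several genes.

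Hist1h1c, the gene of linker histone H1.2, was the most abundant, with a mean of 89.6 ± 20.1 TPM in vehicle monocytes (SD, n = 6), 71.5 ± 24.2 in ox-LDL monocytes (n = 5), 101 ± 17.1 in vehicle macrophages (n = 5) and 77.0 ± 19.2 in ox-LDL macrophages (n = 6). Hist1h2bc, an H2B gene with a spliced annotated transcript, followed with 79.3 ± 10.3, 69.5 ± 15.5, 61.0 ± 12.6 and 52.2 ± 20.4 TPM in the same order. The ranges of all 4 groups overlapped for both genes. Together they held 52.6% to 66.2% of the members' summed CPM (counts scaled by library total and TMM factor, for comparing libraries) in single monocyte libraries and 62.2% to 75.0% in single macrophage libraries.

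Hist1h2ao, an H2A gene, was the other member above 10 TPM, with 28.9 ± 10.2 and 27.8 ± 10.1 TPM in vehicle and ox-LDL monocytes and 8.67 ± 1.87 and 5.94 ± 2.10 in vehicle and ox-LDL macrophages. Only 6.5% of its 50-base stretches occur in no other annotated transcript, so its reads can fit near-identical H2A genes as well, and its level is uncertain. Over the 61 members that share had a median of 50.7%, from 2.7% to 100%, with family medians of 98.9% for H1, 60.5% for H4, 56.1% for H2B, 42.8% for H3 and 26.8% for H2A. Of the 7 genes with no counts, Hist2h2aa2 and Hist2h3c1 had 0% of such stretches, so a listing at 0 there does not show that they were not transcribed.

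The next genes by TPM were Hist3h2a, Hist1h4d, Hist2h2be, Hist1h2bg, Hist1h4i, Hist1h1e, Hist1h4h, Hist1h3e and Hist1h4c, whose mean over the 4 groups ran from 8.42 down to 4.11. Hist2h2be, an H2B gene of the Hist2 cluster, was the one of these 9 with higher means in macrophages, 8.74 ± 1.11 and 9.61 ± 1.49 TPM with vehicle and ox-LDL, than in monocytes, 5.87 ± 1.68 and 5.25 ± 0.594. Hist1h4c, an H4 gene, had its lowest mean in ox-LDL macrophages, at 6.02 ± 1.24, 6.76 ± 1.20, 2.85 ± 0.227 and 0.826 ± 0.306 TPM from vehicle monocytes to ox-LDL macrophages.

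**Figure D1:**
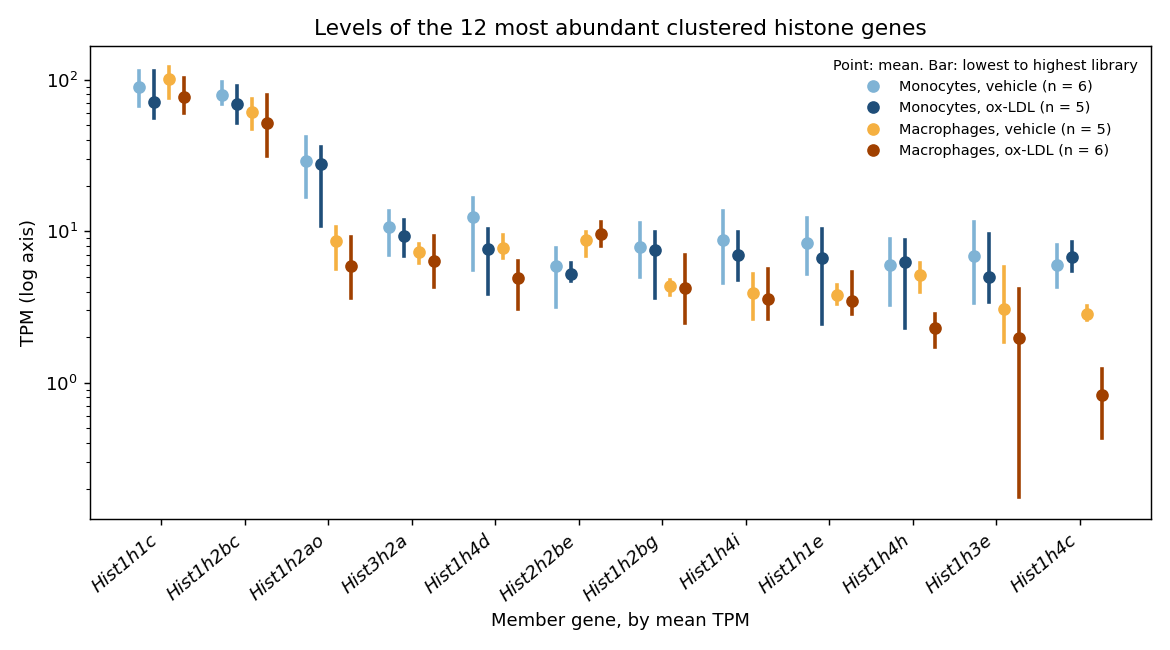
Mean TPM (points) and the range from the lowest to the highest library (bars) of the 12 most abundant members in each group, on a log axis. Hist1h1c and Hist1h2bc lie above all the others in every group, and Hist1h4c in ox-LDL macrophages, at 0.826 TPM, is the lowest mean shown.

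Libraries stood apart within each cell type. Among monocytes, the summed level of 12 neutrophil markers was 30070 to 45800 CPM in libraries 5, 6, 10 and 11 and 4666 to 5779 CPM in the other 7, and that of 9 erythroid markers was 424 to 849 CPM in libraries 1, 2 and 7 and 6587 to 14490 CPM in the rest. All 11 monocyte libraries also held 7279 to 12260 CPM of 9 dendritic cell markers, 4205 to 19300 CPM of 12 monocyte markers and 3669 to 8640 CPM of 12 macrophage markers. The monocyte markers summed higher in macrophages, at 21820 to 39920 CPM, than in any monocyte library, so their sum does not follow the labels. In macrophages the neutrophil markers summed to 25.7 to 93.7 CPM, the erythroid markers to 3.51 to 27.5 CPM and the macrophage markers to 33310 to 43090 CPM. On the first principal component of the macrophage libraries, C, D, I and J lay at one end and A, G, H and K at the other, and the G2/M genes summed to 93.4 to 122 CPM in the former and 30.4 to 47.4 CPM in the latter. Of 10 B-cell and plasma cell and 11 T and NK cell markers, 9 and 10 were called lower and 1 and 0 higher in vehicle macrophages than in vehicle monocytes (edgeR). Values without these libraries are given beside the results they change.

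The members' summed CPM had a median of 146 (lowest 96.1, highest 202) in vehicle monocytes. It was 83.1, 164, 115, 112 and 134 in ox-LDL monocytes 7 to 11 and 119, 120, 129, 118 and 102 in vehicle macrophages A to E. In ox-LDL macrophages the median was 88.8, from 72.2 in K to 121 in I. The groups overlapped. The sum was 83.1 to 115 in the 3 monocyte libraries low in erythroid markers and 112 to 202 in the other 8. In vehicle macrophages A, which lay apart from C and D, it was 119, close to theirs, whereas among ox-LDL macrophages it was 121 and 120 in I and J, which lay with vehicle libraries C and D, and 72.2 to 84.8 in G, H and K.

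**Figure D2:**
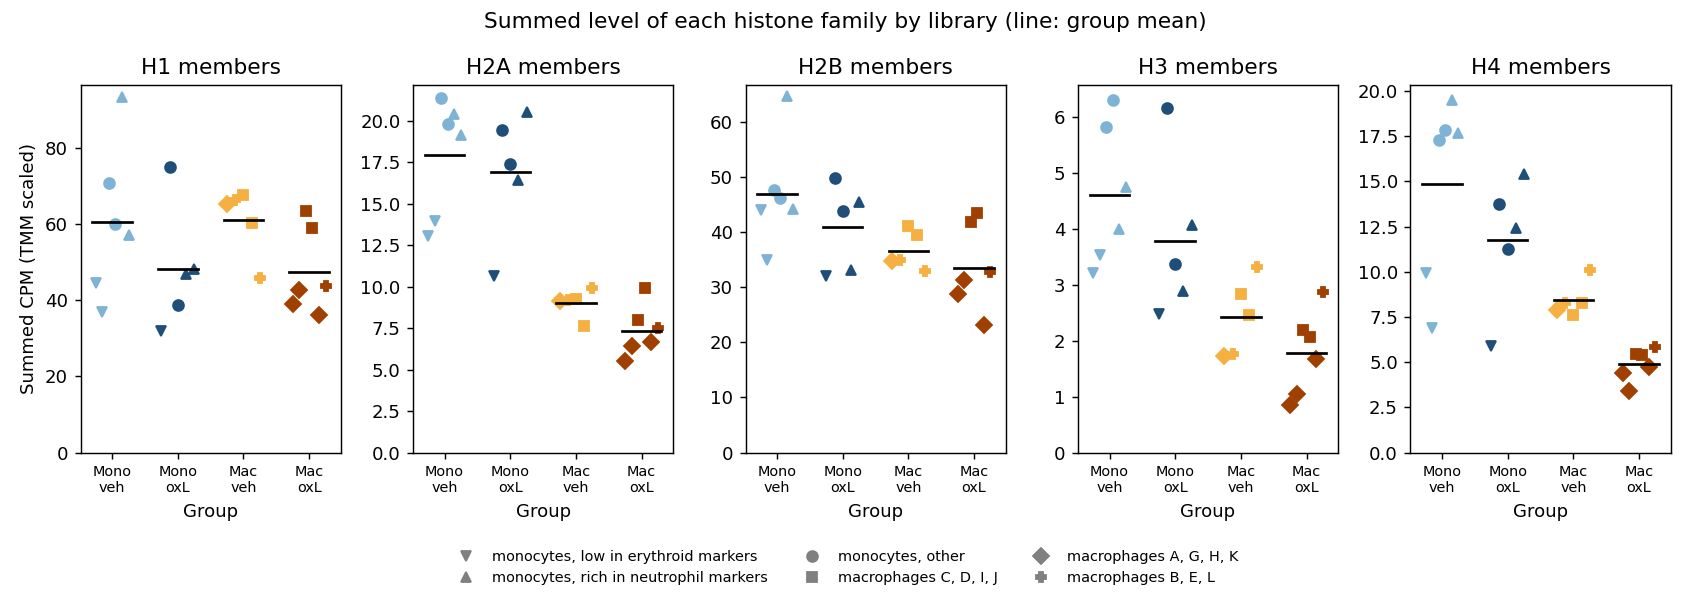
Summed CPM of the members of each histone family in every library, by group, with the group mean as a line and the marker shape giving the library set. The H4 sums of ox-LDL macrophages, 3.40 to 5.86 CPM, all lie below those of vehicle macrophages, 7.62 to 10.1 CPM, and the H1 and H2B sums overlap between all groups.

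Macrophages were compared with monocytes first with vehicle in both. Most members tested were lower in macrophages. Of the 30 that passed the filter on low counts, 20 fell, 1 rose and 9 did not pass the test. Calls were made by the edgeR quasi-likelihood test at an adjusted p under 0.05 over all genes tested. The remaining 31 members were not tested. Within macrophages, vehicle and ox-LDL libraries were filtered together. Of the 30, 22 were also measured well enough to be tested there, and 14 of them fell, 1 rose and 7 did not pass. The other 8 passed the filter through their monocyte counts, so a lower value in macrophages was built into their selection, and they gave the remaining 6 lower calls. Over all 16288 genes tested, 35.1% were called lower and 28.5% higher. The median log2 fold change was -1.14 over the 30 members, those 8 included, and -0.09 over all genes. In these bulk samples fewer cells expressing a gene and less RNA per cell cannot be told apart, and the monocyte libraries held the other cell types named above, whose part in this comparison was not tested. H4 members summed to 5.92 to 9.95 CPM in monocytes low in erythroid markers, 12.4 to 19.5 in those rich in neutrophil markers and 11.25 to 17.9 in the rest. Vehicle macrophages, at 7.62 to 10.1 CPM, overlapped the first set. For H2A the sums were 10.65 to 13.9, 16.4 to 20.5 and 17.4 to 21.4 CPM, and vehicle macrophages, at 7.65 to 9.89 CPM, lay below all 3 sets. Whether a group's libraries were taken from different mice or cultures is not in the labels, so every p-value given here covers library-to-library spread, which may be technical.

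Among the H2B genes, 7 of 8 tested were lower. The 7 include Hist1h2bb, Hist1h2bf and Hist1h2bj, which passed the filter through the monocytes, so a lower value was built into their selection. Hist1h2be was at 2.17, 1.92, 2.88, 2.82, 3.32 and 2.21 CPM in vehicle monocytes and 0.870, 0.935, 0.473, 0.392 and 0.722 CPM in vehicle macrophages. The groups did not overlap, and the log2 fold change was -1.98 ± 0.27 (SE; edgeR adjusted p = 2.11e-05). Its annotated exons overlap those of Hist1h1e, an H1 gene, on the same strand, so reads of the 2 genes may be mixed; Hist1h1e changed by -1.22 ± 0.26 (edgeR adjusted p = 0.000984). Hist3h2ba, an H2B gene of the Hist3 cluster, had the lowest fold of the 30 at -2.72 ± 0.54 (edgeR adjusted p = 0.000593), from 0.613 to 1.88 CPM in monocytes to 0 to 0.384 CPM in macrophages. Its counts were 30 to 98 per vehicle monocyte library and 0 to 17 per vehicle macrophage library. Within macrophages it was tested together with ox-LDL libraries, so a lower value may be built into its selection too. Hist1h2bb was at -2.45 ± 0.58 (edgeR adjusted p = 0.00208) from only 9 to 28 counts per monocyte library and 0 to 8 per macrophage library, and it is among the 8 genes that passed the filter through the monocytes.

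Of the H2A genes, 5 of 6 tested were lower and none higher. The lower ones include Hist1h2ap and Hist2h2ac, which passed the filter through the monocytes, so a lower value was built into their selection. Hist1h2ao was at 2.79, 2.55, 4.84, 4.96, 8.20 and 7.77 CPM in vehicle monocytes and 1.68, 0.963, 1.59, 1.84 and 1.51 CPM in vehicle macrophages, a log2 difference of -1.84 ± 0.32 (edgeR adjusted p = 0.00016). The groups did not overlap. Hist1h2ac, an H2A gene whose annotated transcript runs 2010 bases past its stem-loop, changed by -1.88 ± 0.37 (edgeR adjusted p = 0.000475), and Hist3h2a by -0.57 ± 0.17 (edgeR adjusted p = 0.00868).

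Of the H4 genes, 4 of 8 tested were lower: Hist1h4c by -1.16 ± 0.23 (edgeR adjusted p = 0.000497), Hist2h4 by -1.34 ± 0.33 (0.00265), Hist1h4i by -1.30 ± 0.34 (0.00448) and Hist1h4d by -0.79 ± 0.28 (0.0261) on the log2 scale. Hist1h4h, at 0.470 to 1.47 CPM in vehicle monocytes and 0.660 to 1.05 CPM in vehicle macrophages, overlapped between the cell types, with a log2 difference of -0.30 ± 0.33 (edgeR adjusted p = 0.435). H3 genes were called in 2 of 4 cases, Hist1h3e at -1.21 ± 0.37 and Hist1h3f at -1.41 ± 0.45 (edgeR adjusted p = 0.0105 and 0.0137), the latter also among those 8.

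Linker histone H1 genes divided. Hist1h1e and Hist1h1d (-1.12 ± 0.30, edgeR adjusted p = 0.00504) were lower, Hist1h1b was at -1.08 ± 0.47 (0.0587), and Hist1h1c was at 39.4, 32.2, 58.8, 49.5, 82.0 and 47.2 CPM in vehicle monocytes and 60.9, 62.4, 64.2, 55.2 and 42.3 CPM in vehicle macrophages. The 2 groups overlapped for Hist1h1c, and the log2 difference was 0.07 ± 0.20 (edgeR adjusted p = 0.764). Hist2h2be was the member that rose: it was at 4.96, 5.48, 6.82, 6.28, 3.85 and 5.04 CPM in vehicle monocytes and 9.49, 8.50, 8.80, 6.49 and 8.35 CPM in vehicle macrophages. The lowest macrophage library was within the monocyte range and the other 4 above it, and the log2 difference was 0.54 ± 0.17 (edgeR adjusted p = 0.013). All of its 50-base stretches (100%) occur in no other annotated transcript. In all, 6 of the 30 members were lower with no overlap of the libraries' CPM, beside 24.9% of all genes tested.

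With ox-LDL in both cell types, 19 of 26 tested members were lower in macrophages, 1 was higher and 6 did not pass the test, beside 35.0% and 30.3% of the 15825 genes tested; 6 members were lower without overlap, beside 24.9% of all genes. Of the 26, 22 were also tested within macrophages, with 15 lower and 1 higher, and the other 4 (Hist1h2ap, Hist1h2bj, Hist1h3f and Hist2h2ac), all called lower, passed the filter through the monocytes. The median log2 fold change was -1.13 over the members and -0.07 over all genes. Hist1h4c had the lowest p of the 26. It was at 1.41, 1.92, 2.47, 1.79 and 2.75 CPM in ox-LDL monocytes and 0.273, 0.333, 0.131, 0.352, 0.232 and 0.156 CPM in ox-LDL macrophages, which is 8.66-fold lower in the fit (log2 -3.11 ± 0.30, edgeR adjusted p = 9.95e-07). Every macrophage library was below every monocyte library.

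The other members named by their p in this comparison were Hist1h2ao (-2.35 ± 0.34), Hist1h2ac (-2.46 ± 0.42), Hist1h2be (-1.80 ± 0.35), Hist1h2bj (-1.62 ± 0.32), Hist1h4h (-1.54 ± 0.33), Hist1h3f (-1.69 ± 0.42), Hist2h4 (-1.60 ± 0.40) and Hist1h4i (-1.08 ± 0.29), with edgeR adjusted p from 4.31e-05 to 0.00479. Hist1h4i lost its call without macrophages G, H and K (-0.84, edgeR adjusted p = 0.0817) and was at -0.72 (0.0442) without monocytes 10 and 11. Hist2h2be was again the member that rose, at 0.78 ± 0.18 on the log2 scale (edgeR adjusted p = 0.00144): ox-LDL monocytes held 4.11, 5.24, 4.63, 4.48 and 7.27 CPM and ox-LDL macrophages 11.3, 11.3, 7.70, 8.45, 8.34 and 8.00 CPM, without overlap. Hist1h1c was at 0.03 ± 0.21 (edgeR adjusted p = 0.901). Without monocyte libraries 10 and 11, rich in neutrophil markers, 12 members were called lower, and without macrophages G, H and K 9 were. In each of these fits 1 was called higher. They used fewer libraries, and their shares of all genes called are not given here. Whether the drop is particular to these members was not tested.

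**Figure D3:**
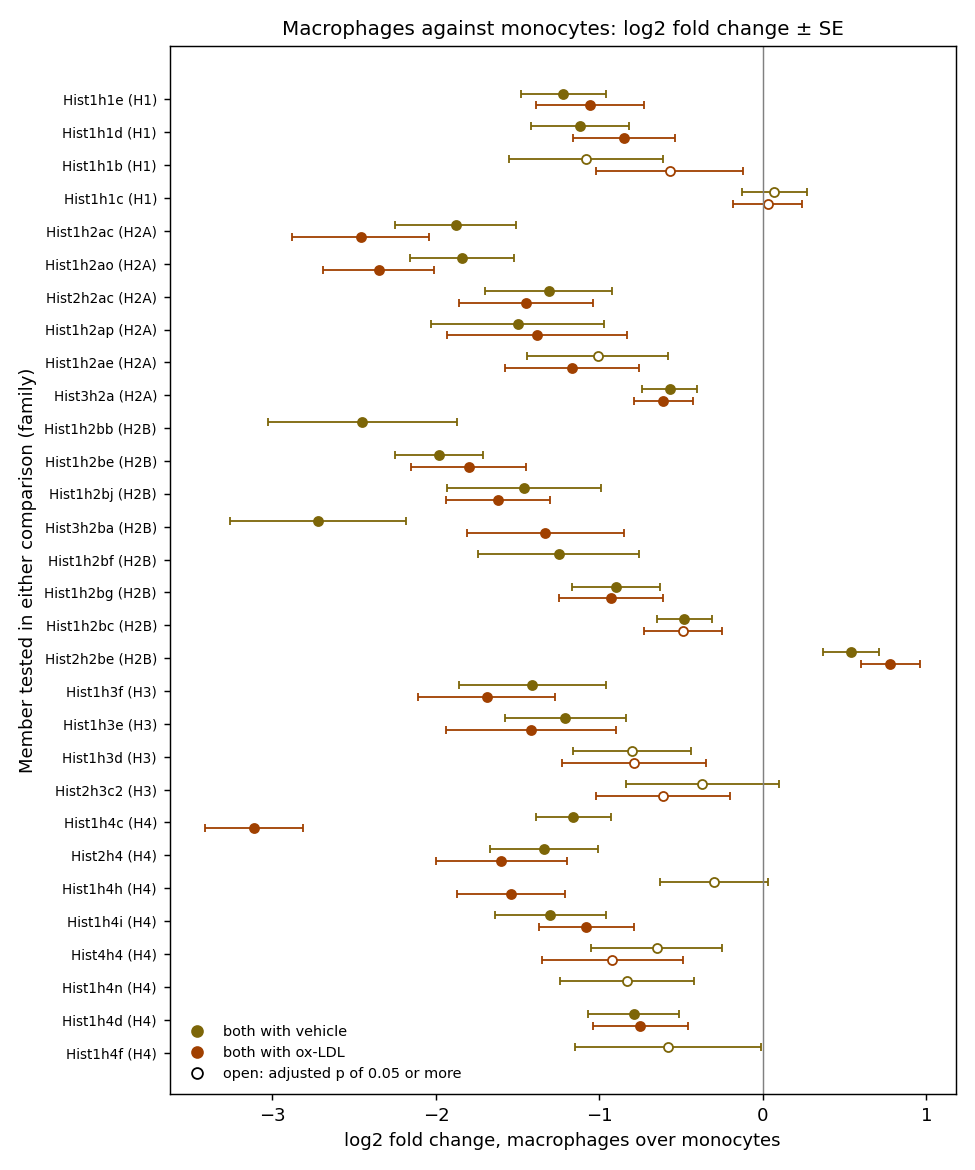
Log2 fold change ± SE of macrophages over monocytes for every member tested with vehicle or with ox-LDL, ordered by family; filled points have an edgeR adjusted p under 0.05. Nearly all points lie left of 0, Hist2h2be lies right of it in both comparisons, and Hist1h4c moves from -1.16 with vehicle to -3.11 with ox-LDL.

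Lists of related genes were set beside these values. Because the libraries were made from polyadenylated RNA, the members' values do not cover their mRNAs that end at the stem-loop. Their levels therefore cannot be compared as supply with those of histone genes outside the clusters. Their counts are to be read against the shares of all genes given above, 35.1% lower and 28.5% higher with vehicle and 35.0% and 30.3% with ox-LDL. Of 11 histone genes outside the clusters, 7 were lower in vehicle macrophages and none higher, among them H2afz, which encodes the variant H2A.Z, at -2.23 ± 0.14, H3f3a at -2.06 ± 0.17, H2afv at -1.42 ± 0.13, H2afx, the variant phosphorylated at DNA breaks, at -1.49 ± 0.16 and H3f3b at -1.13 ± 0.13 on the log2 scale (edgeR adjusted p from 1.07e-08 to 3.39e-06). With ox-LDL 6 of 11 were lower, H2afz by -2.56 ± 0.13, H2afx by -1.53 ± 0.10, H2afv by -1.79 ± 0.14, H3f3b by -1.40 ± 0.12 and H3f3a by -1.87 ± 0.17 (2.47e-09 to 7.11e-07). H1f0, the linker histone gene of differentiated cells, was at -0.26 ± 0.11 with vehicle and 0.18 ± 0.17 with ox-LDL (edgeR adjusted p = 0.0511 and 0.382). The summed level of these 11 genes was 2453 to 3705 CPM in monocyte libraries and 976 to 1329 CPM in macrophage libraries.

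Among 19 genes of histone mRNA processing and transcription, 7 (36.8%) were lower and 4 (21.1%) higher in vehicle macrophages, the lower share being near that of all genes. Slbp, whose product binds the stem-loop, was at 59.9 ± 10.4 CPM in vehicle monocytes (SD, n = 6) and 36.1 ± 2.48 CPM in vehicle macrophages (n = 5), a log2 change of -0.81 ± 0.12 (edgeR adjusted p = 4.65e-05), and with ox-LDL the change was -1.31 ± 0.14 (1.92e-06). Npat, the histone gene coactivator, was at 0.37 ± 0.18 and 0.28 ± 0.14 (edgeR adjusted p = 0.0896 and 0.0883). Ncbp2, a subunit of the nuclear cap-binding complex, rose by 0.86 ± 0.09, whereas Srrt, which links that complex to RNA processing, fell (-0.92 ± 0.11) and so did Lsm10 of the U7 particle that cleaves histone pre-mRNA (-0.64 ± 0.11). With ox-LDL the split was 7 lower and 5 higher, with Lsm10 at -0.95 ± 0.11, Ncbp2 at 0.87 ± 0.11 and the scaffold gene Sympk at 1.14 ± 0.15.

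Of 14 chaperone and deposition genes, 4 (28.6%) were lower and 3 (21.4%) higher with vehicle, both below the shares of all genes, and 6 lower and 3 higher with ox-LDL. Hat1, the acetyltransferase of new H4, was at -1.69 ± 0.14 and -1.73 ± 0.13, Rbbp7 at -1.32 ± 0.13 and -1.48 ± 0.16, Asf1a, which hands H3 and H4 to the assembly factors, at -1.06 ± 0.18 and -1.27 ± 0.16, and Ipo4, an importin of H3 and H4, at 1.63 ± 0.18 and 1.46 ± 0.11 with vehicle and ox-LDL. Of 28 S-phase genes, 8 (28.6%) were lower and 6 (21.4%) higher with vehicle, again below those shares, and 8 and 8 with ox-LDL, with E2f1 at 2.38 ± 0.13 and Uhrf1 at -3.19 ± 0.33 with vehicle. Of 19 G2/M genes, 8 (42.1%) were lower with vehicle and 7 (36.8%) with ox-LDL, beside 35.1% and 35.0% of all genes. The 1 higher each time (5.3%) was Cdk1 (1.54 ± 0.36 and 1.45 ± 0.29). The S-phase list had calls in both directions in macrophages, and the lower share of the G2/M list was near that of all genes. A link between the cell cycle and the histone values was not tested.

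The ox-LDL effect was examined first in monocytes. Of the 34 members tested, edgeR called none, and 1 (Hist3h2ba) fell under an unadjusted p of 0.05. DESeq2 and limma voom called none either. In simulated counts, edgeR recovered 34.4% of 2-fold changes for this comparison and 80.8% for ox-LDL in macrophages. The changed genes were drawn at random from all genes that passed the filter, so these are not the rates for members with few counts. The absence of calls in monocytes therefore does not show that these genes did not change. Over all 16575 genes tested, 0.0241% were called, and 10.4% had an unadjusted p under 0.05. Of the 34 members, 26 had a fold change below 0, beside 50.1% of all genes, with a median log2 fold change of -0.21 beside 0.00 over all genes. None of the 34 was lower without overlap of the libraries, beside 0.664% of all genes.

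The 4 members with the lowest p in monocytes were Hist3h2ba, Hist1h2be, Hist1h4d and Hist4h4. Hist3h2ba was at 1.32, 0.613, 1.88, 1.07, 1.32 and 1.21 CPM with vehicle and 0.725, 0.461, 0.277, 0.851 and 0.366 CPM with ox-LDL. The ranges overlapped through vehicle library 2, and the log2 difference was -1.20 ± 0.36 (edgeR adjusted p = 0.271). Hist1h2be was at -0.52 ± 0.24 (0.482), Hist1h4d at -0.68 ± 0.36 (0.556) and Hist4h4 at -0.58 ± 0.39 (0.664). Hist1h4d was at 3.49, 1.94, 6.36, 6.42, 6.99 and 6.19 CPM with vehicle and 1.39, 4.29, 2.30, 4.05 and 4.37 CPM with ox-LDL. Its low vehicle values came from libraries 1 and 2, low in erythroid markers, as did the lowest ox-LDL value, from library 7. Its ratio of ox-LDL to vehicle means was 0.511 within those 3 libraries, 0.639 within the 4 rich in neutrophil markers and 0.516 within the other 4.

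The 13 H4 members together summed to 6.87 to 19.5 CPM in vehicle monocytes and 5.92 to 15.4 CPM in ox-LDL monocytes, which overlapped. The ratio of the means was 0.704, 0.748 and 0.711 within the 3 library sets in the same order.

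Hist1h4c was at 1.66, 1.08, 1.65, 2.27, 2.33 and 1.80 CPM in vehicle monocytes beside the ox-LDL values above, with a log2 difference of 0.20 ± 0.25 (edgeR adjusted p = 0.849), and Hist1h4h was at 0.10 ± 0.40 (0.965). Hist1h1c was at -0.33 ± 0.25 (0.701). In the 5 lists of related genes no gene was called in monocytes: Slbp was at 0.47 ± 0.17 (edgeR adjusted p = 0.357), Npat at 0.11 ± 0.19 (0.904), H2afx at 0.00 (0.996), H2afz at 0.12 ± 0.15 (0.846), H3f3a at -0.20 ± 0.19 (0.784), H3f3b at 0.23 ± 0.15 (0.646) and H1f0 at -0.28 ± 0.18 (0.624).

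**Figure D4:**
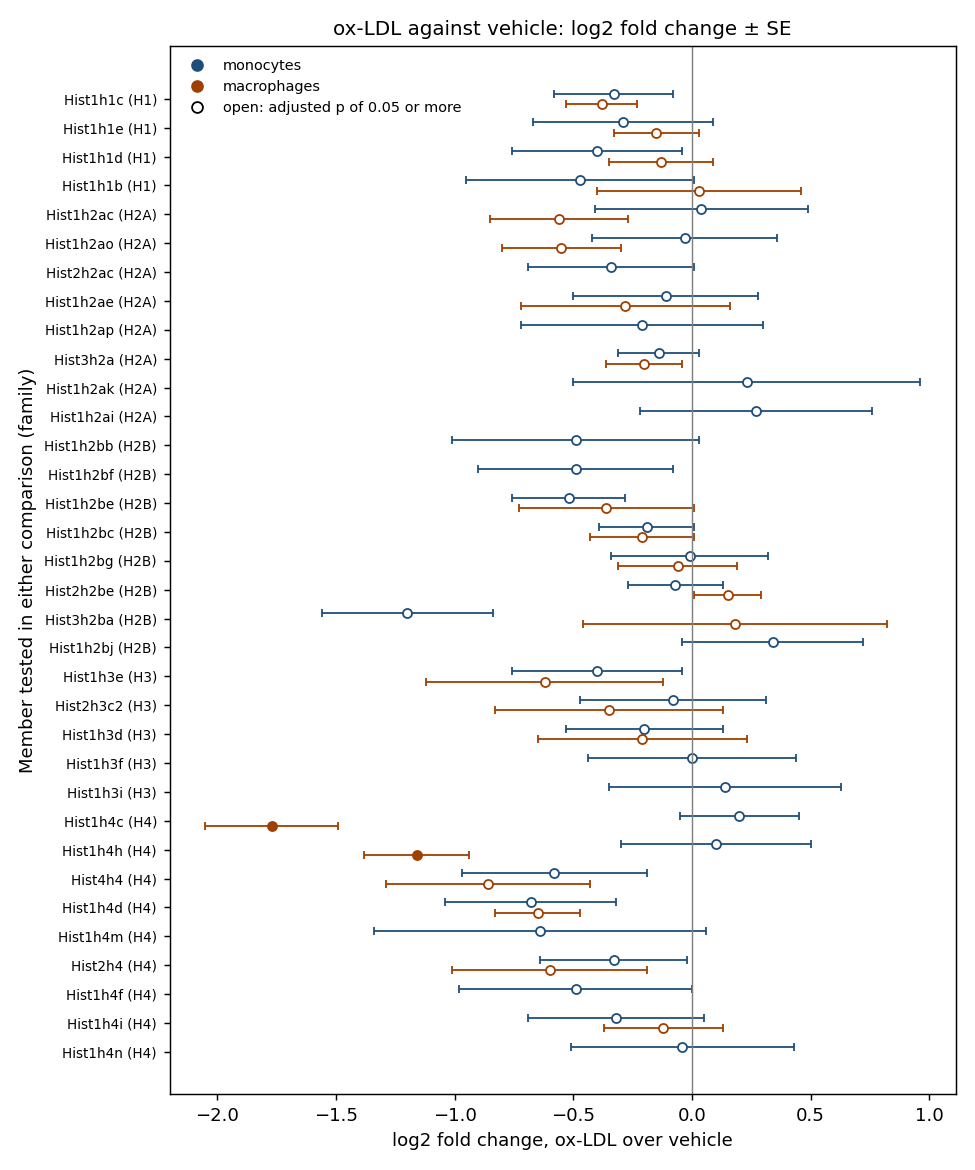
Log2 fold change ± SE of ox-LDL over vehicle for every member tested in monocytes or macrophages, ordered by family; filled points have an edgeR adjusted p under 0.05. The 2 filled points are Hist1h4c at -1.77 and Hist1h4h at -1.16 in macrophages, and both genes lie near 0 in monocytes.

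In macrophages, 2 H4 genes were lower with ox-LDL. Hist1h4c and Hist1h4h were called, 2 of the 22 members tested and of the 6 H4 genes tested, and no member was called higher; 1.38% of the 14543 genes tested were called lower. The median log2 fold change was -0.31 over the 22 members and 0.00 over all genes, and 19 of the 22 were below 0, beside 49.9% of all genes. The other 39 members, 7 of the 13 H4 genes among them, did not pass the filter on low counts. Markers of the cells were called in the same comparison: 4 of 10 monocyte markers tested were lower, Ccr2 (-1.20 ± 0.23), Cd14 (-1.02 ± 0.12), Cx3cr1 (-1.58 ± 0.37) and Fcgr1 (-0.60 ± 0.13), and 2 of 12 macrophage markers, Fcgr1 and C1qc (-0.40 ± 0.09), with edgeR adjusted p from 0.00076 to 0.0414. The monocyte markers summed to 25590 to 35870 CPM with vehicle and 21820 to 39920 CPM with ox-LDL, and the macrophage markers to 33490 to 38620 CPM and 33310 to 43090 CPM. Their part in the result was not tested. By family, the 6 H4 genes tested had a median of -0.76, from -1.77 to -0.12, the 4 H2A genes -0.42, the 3 H3 genes -0.35, the 4 H1 genes -0.14 and the 5 H2B genes -0.06.

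Hist1h4c was at 0.870, 0.825, 0.899, 0.833 and 0.813 CPM in vehicle macrophages A to E and 0.273, 0.333, 0.131, 0.352, 0.232 and 0.156 CPM in ox-LDL macrophages G to L. The raw counts were 41, 30, 38, 34 and 36 with vehicle and 10, 14, 6, 15, 10 and 7 with ox-LDL. Every ox-LDL library was below every vehicle library, and the gene was 3.41-fold lower (log2 -1.77 ± 0.28, edgeR adjusted p = 0.00421). Within the library sets the ratio of ox-LDL to vehicle means was 0.279 among C, D, I and J, 0.321 among A, G, H and K, and 0.191 among B, E and L. Without A, G, H and K the log2 change was -1.97 with an edgeR adjusted p of 0.0553, from 4 vehicle and 3 ox-LDL libraries, and in the other 18 alternatives it stayed called.

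Hist1h4h was at 1.02, 0.660, 0.828, 1.05 and 0.835 CPM with vehicle and 0.356, 0.309, 0.413, 0.470, 0.395 and 0.401 CPM with ox-LDL, from counts of 24 to 48 and 13 to 20. The groups did not overlap, and the gene was 2.23-fold lower (log2 -1.16 ± 0.22, edgeR adjusted p = 0.0144). Its ratio within the library sets was 0.469, 0.347 and 0.537 in the same order. The call was lost with no filter on low counts (edgeR adjusted p = 0.061), in 1 fit over all 4 groups (0.191) and without C, D, I and J (0.0873) or A, G, H and K (0.188).

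Hist1h4d was at 3.16, 2.696, 2.60, 3.65 and 3.82 CPM with vehicle and 1.91, 1.33, 2.22, 2.54, 1.77 and 2.30 CPM with ox-LDL. The groups just failed to overlap, at 2.54 in J and 2.60 in C, and the log2 difference of -0.65 ± 0.18 did not pass in edgeR (adjusted p = 0.0775) but did in DESeq2 (0.0164). Hist1h4c, Hist1h4h and Hist1h4d were the members lower without overlap, 3 of 22 beside 1.84% of all genes tested. Hist1h4i, which encodes the same H4 protein, was at 0.891, 1.35, 1.18, 1.05 and 0.677 CPM with vehicle and 0.711, 0.879, 1.5, 0.892, 0.697 and 0.981 CPM with ox-LDL. These groups overlapped (log2 -0.12 ± 0.25, edgeR adjusted p = 0.902). Hist4h4 was at -0.86 ± 0.43 (0.391), with library E far above the other vehicle libraries, and Hist2h4 at -0.60 ± 0.41 (0.567).

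**Figure D5:**
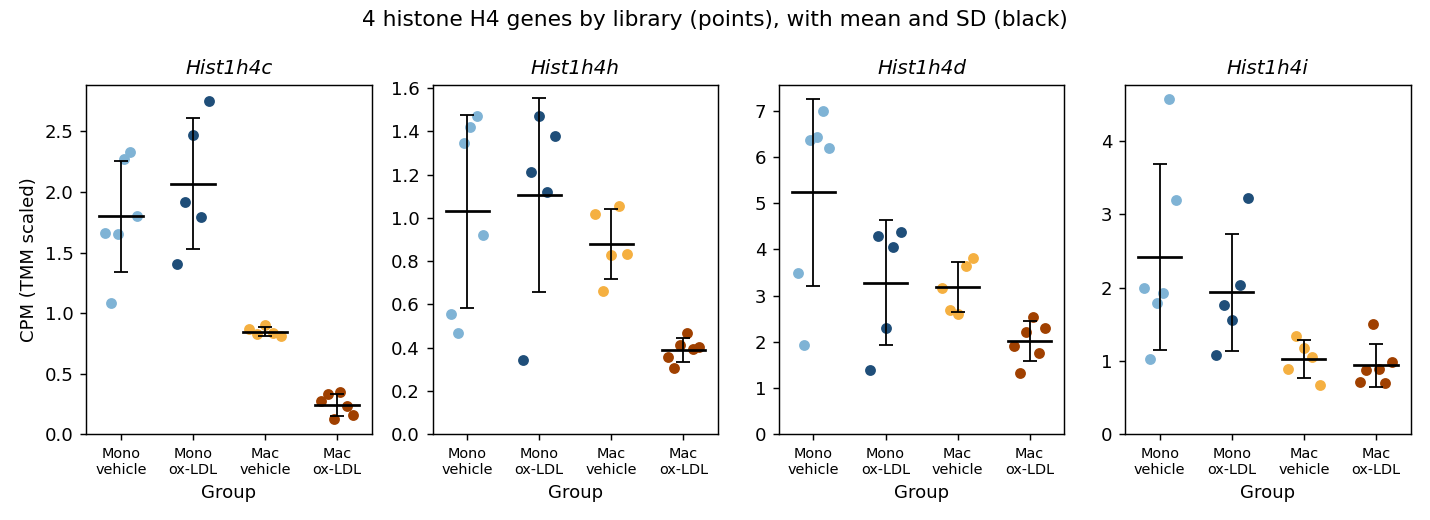
CPM of 4 H4 genes in every library (points) with the mean and SD of each group in black. Hist1h4c falls into 2 separate ranges in macrophages, 0.813 to 0.899 with vehicle and 0.131 to 0.352 with ox-LDL, Hist1h4h and Hist1h4d are also separate there, and Hist1h4i overlaps.

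Summed over the 13 H4 members, the level was 7.87, 8.25, 7.62, 8.28 and 10.1 CPM in vehicle macrophages and 4.40, 3.40, 5.46, 5.40, 4.74 and 5.86 CPM in ox-LDL macrophages, without overlap. Leaving out Hist1h4c and Hist1h4h, the other 11 H4 members summed to 5.89 to 8.47 CPM with vehicle and 2.76 to 5.31 CPM with ox-LDL. Much of that sum was Hist1h4d, itself without overlap, at 2.603 to 3.815 CPM with vehicle and 1.33 to 2.536 CPM with ox-LDL. Vehicle library D held 6.396 CPM of this sum, 3.651 of it from Hist1h4d, and ox-LDL library L held 5.306 CPM, 2.296 of it from Hist1h4d. With Hist1h4d left out as well, the groups overlap, so the separation does not extend to the remaining H4 members as a sum. H4 genes made 5.93% to 9.90% of the members' summed CPM with vehicle and 4.01% to 6.56% with ox-LDL in macrophages. The ratio of H4 means was 0.683, 0.531 and 0.639 within the library sets in the order above. The summed H1 level overlapped between the groups, at 46.0 to 67.8 CPM and 36.1 to 63.5 CPM.

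Grouped by their annotated ends instead, the 20 members that end near the stem-loop summed to 3.88 to 5.06 CPM in vehicle macrophages and 2.13 to 3.33 CPM in ox-LDL macrophages, without overlap. The 22 members that extend past it summed to 66.8 to 84.5 CPM and 48.4 to 77.4 CPM, and the 16 without one to 30.2 to 39.3 CPM and 21.5 to 41.3 CPM, with overlap in both classes. The first class holds Hist1h4h, called above, and Hist1h2ao, whose level is uncertain. Hist1h2ao was at 0.963 to 1.84 CPM with vehicle and 0.665 to 1.53 CPM with ox-LDL, a large part of the first sum. Vehicle library D held 4.093 CPM of this class, with 1.838 from Hist1h2ao and 1.054 from Hist1h4h. In ox-LDL library I the class held 3.175 CPM, with 1.066 from Hist1h2ao and 0.413 from Hist1h4h. With these genes left out the groups overlap, so the separation does not extend to the rest of that class as a sum. Hist1h4c and Hist1h4d belong to the second class.

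Hist1h1c was at 60.9, 62.4, 64.2, 55.2 and 42.3 CPM in vehicle macrophages and 35.6, 39.0, 59.2, 54.1, 33.0 and 40.6 CPM in ox-LDL macrophages. Libraries I and J lay within the vehicle range and the other 4 ox-LDL libraries below all vehicle libraries, and the log2 difference was -0.38 ± 0.15 (edgeR adjusted p = 0.267). Its ratio of ox-LDL to vehicle means was 0.949 among C, D, I and J and 0.589 among A, G, H and K; without C, D, I and J the difference was -0.57 (edgeR adjusted p = 0.0432). Hist1h2bc was at -0.21 ± 0.22 (0.743) and Hist2h2be at 0.15 ± 0.14 (0.711).

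No gene of the 5 lists of related genes (histones outside the clusters, mRNA processing, chaperones, S phase and G2/M) was called in macrophages with ox-LDL. Slbp was at -0.04 ± 0.06 (edgeR adjusted p = 0.857), Npat at 0.00 (0.996), H2afx at -0.06 ± 0.10 (0.869), H2afz at -0.21 ± 0.10 (0.372), H3f3a at -0.02 ± 0.15 (0.975), H3f3b at -0.05 ± 0.08 (0.829) and H1f0 at 0.15 ± 0.09 (0.494). The median log2 fold change was -0.04 over the 28 S-phase genes and -0.16 over the 19 G2/M genes. The G2/M sum was 43.1 to 99.7 CPM with vehicle and 30.4 to 122 CPM with ox-LDL.

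Promoters of the H4 genes were read from RefSeq sequences (GRCm38.p6, 250 bases before to 50 after the annotated start), since Hist1h4c, Hist1h4h and Hist1h4d were separate in macrophages and Hist1h4i, which encodes the same protein, was not. The element sought was CAGGTCCG, on both strands. It was the only element sought and was chosen after the values had been seen. Which genes hold it therefore cannot serve as a test of the ox-LDL result. It was present in 5 of the 12 H4 members with a promoter entry (Hist1h4b, Hist1h4c, Hist1h4d, Hist1h4h and Hist4h4), in none of the 6 H1, 14 H2A, 13 H2B and 8 H3 members with one, and in 0.834% of all 32851 promoters. Hist1h4i had no match. The letters around the element, upstream of the annotated start, are printed for the 3 genes that did not overlap in macrophages, 5′ to 3′ on the gene's strand with the element in capitals.

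Hist1h4c (chr13:23698473-23698532, minus strand): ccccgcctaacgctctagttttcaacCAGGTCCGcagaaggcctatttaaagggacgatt
Hist1h4d (chr13:23581493-23581552, plus strand): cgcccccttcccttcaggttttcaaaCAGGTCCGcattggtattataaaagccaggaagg
Hist1h4h (chr13:23531011-23531044, plus strand): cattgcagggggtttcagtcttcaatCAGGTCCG

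The element began 48 bases before the annotated start in Hist1h4c, 49 in Hist1h4d and 7 in Hist1h4h. Hist4h4 also held it and was not called, and Hist1h4b did not pass the filter on low counts in macrophages. A match of these letters describes the sequence and was not tested as a binding site.

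Whether ox-LDL acted differently in macrophages and monocytes was tested as an interaction in 1 fit over the 4 groups. Of 35 members tested 1 was called, Hist1h4c, with a lower effect in macrophages than in monocytes, at -1.95 ± 0.35 on the log2 scale (edgeR adjusted p = 0.0354), beside 0.0573% of the 17466 genes tested. The median was -0.13 over the members and -0.01 over all genes. Hist1h4h was at -1.23 ± 0.46 (0.567), Hist1h4f at -1.78 ± 0.87 (0.696) and Hist3h2ba at 1.40 ± 0.75 (0.746). Hist1h4f, an H4 gene of low level, held 0.0805 to 0.451 CPM in monocytes and 0 to 0.339 CPM in macrophages. Hist1h4d, whose fold changes were alike in the 2 cell types, was at 0.05 ± 0.42 (1.0). The call of Hist1h4c depended on the libraries used: leaving out any 1 of 16 of the 22 libraries ended it. Over 31 alternatives it was called in 10, with adjusted p from 0.000281 (DESeq2) to 0.266 (edgeR without macrophages A, G, H and K) and sizes from -2.14 to -1.81. It was kept without vehicle monocyte 2, 4 or 5, ox-LDL monocyte 7 or 10, or ox-LDL macrophage J. Slbp was at -0.48 ± 0.18 (0.575), Npat at -0.08 ± 0.23 (0.997), H2afx at -0.03 ± 0.18, H2afz at -0.31 ± 0.18 (0.78), H3f3a at 0.20 ± 0.25 (0.932), H3f3b at -0.26 ± 0.17 (0.811) and H1f0 at 0.46 ± 0.21 (0.667).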

How the data were processed

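RNA of 22 libraries was measured as raw counts per gene, which the authors deposited together with TPM values that divide counts by gene length and sum to 1000000 per library. STAR 2.7.9a, Subread's featureCounts 2.0.3 and GRCm38 are named per the submitters' processing notes; the sources used here do not give the strand and multi-mapping settings. Counts were tested with edgeR 4.0.16 (R 4.3.3; TMM factors, filterByExpr, quasi-likelihood F test, 2-sided), adjusted by Benjamini-Hochberg over all genes tested, with a threshold of 0.05; the code was tested on simulated data. Alternatives used total counts, no filter, DESeq2 1.42.0, limma 3.58.1 voom, 1 fit over 4 groups and leaving out libraries; those without library sets and with set as a covariate were chosen after seeing the data. The sets were cut at 10000 CPM of neutrophil and 2000 CPM of erythroid markers and at 20 on the macrophages' first principal component. Members and lists were chosen with earlier results of these data known.

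Named were the 12 members with the highest mean TPM, the called members with the lowest p in each comparison (up to 10), and, where fewer than 4 were called, the 4 with the lowest p. Of each list of related genes, up to 4 called genes were named, and Slbp, Npat, H2afx, H2afz, H3f3a, H3f3b and H1f0 in every comparison. Other genes named were chosen after their values were seen. CPM values, scaled by TMM factors, were computed over the 22 libraries together, whose totals ran from 37330389 to 50257111 counts. No 2 libraries were alike: at least 22091 genes differed in count between any 2. Gene positions were taken from GENCODE M21, in which 99.9% of the genes of the table had the same start and end.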

Additional observations from a re-analysis of the deposited data

Results flagged for a closer look

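Within groups, 8 of 112 sets of values held a library whose gap to its nearest neighbour was large for the range of the group (Dixon's 95% critical value), and chance alone gives about 1 in 20. Hist1h1c reached 64.54 CPM in ox-LDL monocyte 8, beside 39.53 in the next library. Hist1h2bc reached 51.8 CPM in vehicle monocyte 5, beside 32.74. Hist1h1e reached 3.639 CPM in ox-LDL macrophage J, beside 2.379, and Hist1h4i 1.5 CPM in ox-LDL macrophage I, beside 0.981. Hist4h4 was at 0.302 CPM in ox-LDL monocyte 7, one of the libraries low in erythroid markers, beside 1.03 in the next lowest. Vehicle macrophage E was high in Hist4h4 at 1.986 CPM (next 0.7977), in Hist1h3e at 1.716 CPM (next 0.8822) and in the sum of H4 members at 10.11 CPM (next 8.283). The ox-LDL effect on Hist1h4c differed between the cell types by -1.95 on the log2 scale (edgeR adjusted p = 0.0354), in a test of the difference itself that most libraries, when left out, took past the threshold.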

How the results depend on the processing

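In macrophages, 2 members were called for ox-LDL. With no filter on low counts 1 was, in 1 fit over all 4 groups 1, and without macrophages A, G, H and K 0; leaving out each library gave 2 in every case. For macrophages against monocytes with ox-LDL, 20 members were called, 13 without monocytes 10 and 11 and 10 without macrophages G, H and K, with 14 to 21 on leaving out each library. The shares of all genes called in these smaller fits are not given here. With vehicle, 21 were called, and every alternative gave 16 to 28. For the difference of the ox-LDL effects, the 1 call became 0 with no filter, 0 with limma voom, 0 without the monocytes low in erythroid markers, and 0 without macrophages C, D, I and J or A, G, H and K, with 0 to 1 on leaving out each library. No member was called for ox-LDL in monocytes in any of 19 alternatives, and no value listed for the alternatives changed sign. The cause of these changes was not tested. No paired analysis was possible because the replicate names (1 to 6, 7 to 11, A to E, G to L) are not shared between groups.

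The counts behind the H4 genes limit these results: Hist1h4c rested on 6 to 41 and Hist1h4h on 13 to 48 counts per macrophage library, and 39 of 61 members could not be tested for ox-LDL there. Near-identical copies and overlapping genes may share reads. Polyadenylated RNA was sequenced, so changes of the members' mRNAs that end at the stem-loop were not measured. Cell types and library sets could not be separated from the groups beyond the fits given.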
